A study of Mus musculus with 10 samples.

Results

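The genes described here encode the voltage-gated sodium channels (Scn) and voltage-gated calcium channels (Cacn) with their auxiliary subunits. Members were taken by name, from the genes whose single annotated symbol is Scn followed by a number and a or b, or starts with Cacna, Cacnb or Cacng. This gave 34 of the 18193 genes represented on the array, 10 sodium channel and 24 calcium channel genes. Each gene was represented by its brightest probe set, a group of short oligonucleotides read as 1 value. Other genes of these families, some of them of such a name, were not analysed here.

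All 10 mice were of the DBA1/lacJ background and had received 120 µg/kg of bacterial lipopolysaccharide (LPS) into the peritoneum, and their brains were taken 5 h later. The comparison was between 5 mice labelled WT and 5 mice labelled KO for mPGES-1, the inducible enzyme (gene Ptges) that makes prostaglandin E2 in inflammation. The preoptic region of the hypothalamus was cut out by laser capture, its RNA went through 2 rounds of amplification before labelling with biotin, and there was 1 array per mouse. Mice that had not received LPS were not analysed here, so each level below was measured after LPS. The age of the mice is not given in the sources used here.

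Voltage-gated sodium channels open on depolarisation and carry the rising phase of the action potential. Each consists of a pore-forming alpha subunit (Scn1a to Scn11a) with small beta subunits that anchor the channel and tune its gating. Voltage-gated calcium channels have a pore-forming alpha1 subunit (Cacna1), an intracellular beta subunit (Cacnb) and an extracellular alpha2delta subunit (Cacna2d), and let in the calcium that triggers transmitter release, pacemaking and gene activation. The Cacng genes include the gamma subunit of the muscle channel, and most others of the family encode TARPs, which bind AMPA-type glutamate receptors. In the preoptic region such channels set the firing of the neurons that respond to temperature and to prostaglandin E2.

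Ptges itself was not lower in the arrays labelled KO. Of its 3 probe sets, one had an intensity of 49.96 ± 24.5 (SD, n = 5) in the arrays labelled KO and 4.54 ± 3.09 in those labelled WT, and its groups did not overlap. The others were at 40.2 ± 21.5 with the KO label against 13.4 ± 13.6 with the WT label, and 37.3 ± 15.9 against 30.7 ± 19.7 (SD, n = 5). These intensities are low, beside array medians of 24.7 to 44.8, and values this low carry little information on the transcript. A probe set outside the deleted part checks no label, and the deleted part is not given in the sources used here. Every direction below therefore rests on the labels. Each array had been scaled to the same trimmed mean intensity, 200.002, while its median intensity was 24.7 to 29.9 in the arrays labelled KO and 32.0 to 44.8 in those labelled WT. Across the array, dim genes were mostly lower in the arrays labelled KO: of 7277 genes below the filter on dim genes, 75.1% were lower. All 5 listed neuron markers were above the filter, as were 9 of 10 listed preoptic genes. Of the markers found on the array, 0 of 4 skeletal muscle, 0 of 2 retinal and 0 of 2 peripheral sensory neuron markers were. Of 3 heart markers, 1 (Nppa) was above the filter. Markers of the neighbouring striatum and septum had a higher mean in the arrays labelled KO, though not in every array. Of 8 listed, 7 were found and 5 were above the filter. The mean log2 signal of those found was 7.69 ± 0.55 (SD, n = 5) against 6.88 ± 0.15. Their summed intensities were 1547 to 4482 against 1109 to 1576. KO replicates 1, 2 and 3 were the highest in mean log2 signal. KO replicate 5 was at 7.21, and KO replicate 4, at 6.98, lay inside the WT range of 6.63 to 7.03. Of the 7 found, 6 were higher with the KO label, and Rgs9 was lower, at -0.25. In 2 arrays labelled WT (replicates 2 and 5) and 1 labelled KO (replicate 3) the poly-A spike-in probe sets gave a signal below 100. In bulk tissue, fewer cells of a type and less RNA per cell cannot be told apart, which holds for every difference below.

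Of the 34 genes, 25 gave a signal above the filter on dim genes and 9 did not. Signal is given as log2(intensity + 16), called log2 signal below, and the filter left out the dimmest 40% of genes, at a mean of 5.83. Above it were 7 of 8 sodium channel alpha genes, both beta genes, 7 of 9 alpha1 genes, 3 of 4 alpha2delta genes, 2 of 3 Cacnb genes and 4 of 8 Cacng genes. The 9 below it were Scn10a, Cacna1f, Cacna1s, Cacna2d4, Cacnb1, Cacng1, Cacng3, Cacng6 and Cacng7. Scn10a is known from pain-sensing neurons (as is Scn11a, which was above the filter), Cacna1f from photoreceptors, and Cacna1s and Cacng1 from skeletal muscle. Just above the filter was Scn11a, at a mean log2 signal of 6.32, and just below it was Cacnb1, at 5.69.

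The order by signal describes probe sets, which bind with different strength, and is no ranking of transcript amounts. The brightest was the chosen Cacna2d2 probe set, at a mean log2 signal of 13.46, brighter than 99.2% of all genes. The other Cacna2d2 probe sets lay below the filter, at mean log2 signals of 4.45 and 4.37. After the chosen Cacna2d2 probe set came Cacna2d1 at 11.42, Scn2a at 11.35, Scn7a at 10.64, Scn3b at 10.56, Scn2b at 10.56 and Scn1a at 10.50. The steps between Scn2a and Cacna2d1 and among Scn7a, Scn3b, Scn2b and Scn1a were smaller than the spread of the arrays within a genotype, whose SD was 0.13 to 0.63 for these genes. The brightest alpha1 probe set was that of Cacna1e, at 9.85, then Cacna1b at 9.25 and Cacna1d at 9.16, while Cacna1a, Cacna1c, Cacna1g and Cacna1h were at 7.09, 6.90, 6.81 and 6.71.

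**Figure D1:**
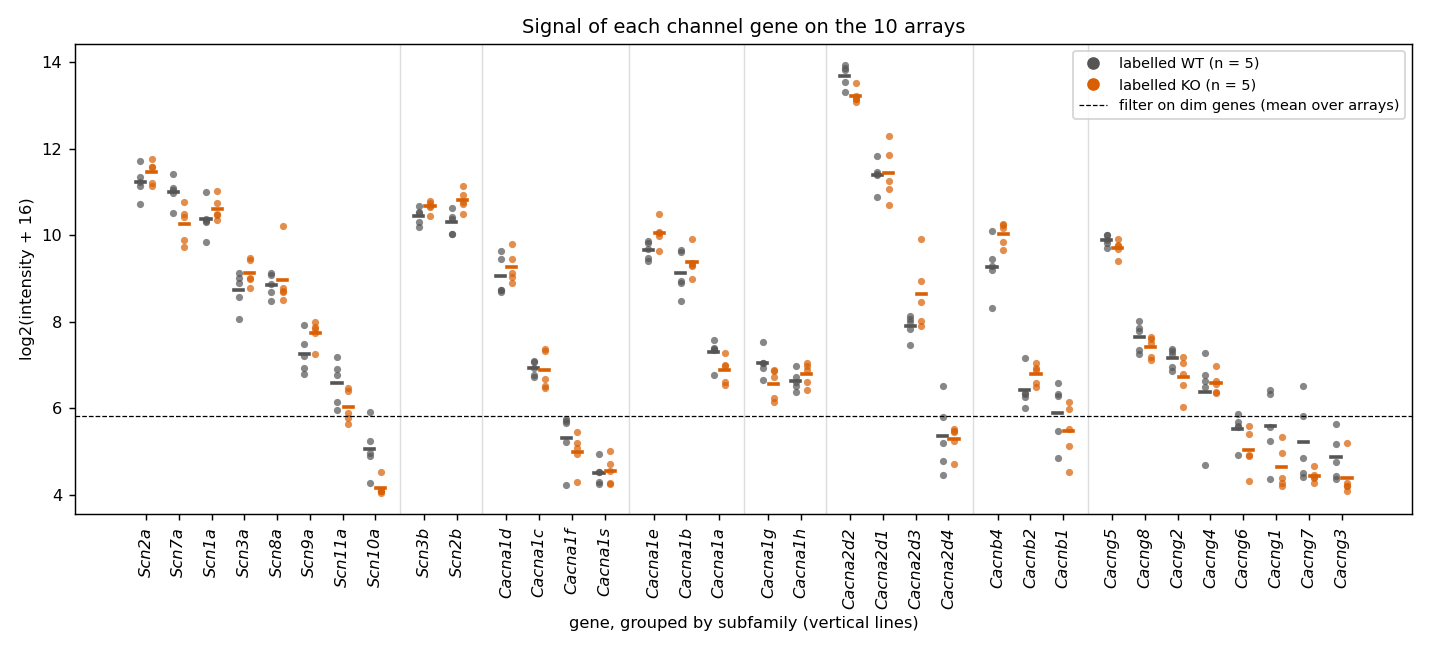
Log2 signal, log2(intensity + 16), of each of the 34 channel genes (x axis, grouped by subfamily) on the 5 arrays labelled WT (grey) and the 5 labelled KO (orange), with bars at the group means and a dashed line at the filter on dim genes (5.83). Cacna2d2 is the brightest at a mean of 13.46, 9 genes lie below the line, and the groups overlap in all genes shown.

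No channel gene passed the test between the labelled genotypes. Of the 25 tested members, 0 had a limma adjusted p below 0.05 (0.0733% of all 10916 tested genes did), and 1, Scn7a, was below 0.1 (3.17% of all). At an unadjusted p below 0.05, 4 members were higher in the arrays labelled KO (16% of the 25, against 8.29% of all tested genes) and 2 were lower (8% against 8.96%), 6 in all, where 17.2% of all tested genes passed in either direction. With each array centred on its median, 8 members were higher and 2 lower, where the median of all tested genes moved from -0.01 to 0.14 and 17.9% of them were higher and 3.62% lower. Among the members, 0 had groups that did not overlap, against 1.93% of all tested genes higher and 2.75% lower. The 4 on the higher side were Cacnb4, Scn2b, Cacna2d3 and Cacna1e, and the 2 on the lower side were Scn7a and Cacna2d2.

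The direction was mixed within nearly every subfamily. Of the 25 tested members 16 were on the higher side, 64% against 49.1% of all tested genes, with a median log2 difference of 0.21 against -0.01 over all tested genes. The median was -0.03 on the 7 arrays with spike-in signal and -0.12 with the mean of each gene's probe sets. It was -0.00437 over all 34 genes in the fit with no filter, which adds the dim members. In the same order, the medians over all tested genes were -0.02, -0.06 and -0.09. By subfamily, the median log2 difference was 0.21 over the 7 sodium channel alpha genes, 0.36 over the 2 beta genes, 0.08 over the 2 Cav1 genes (Cacna1c and Cacna1d), 0.25 over the 3 Cav2 genes (Cacna1a, Cacna1b and Cacna1e), -0.16 over the 2 Cav3 genes (Cacna1g and Cacna1h), 0.04 over the 3 alpha2delta genes, 0.57 over the 2 Cacnb genes and -0.21 over the 4 Cacng genes. With the mean of each gene's probe sets, the median was -0.22 for the sodium channel alpha genes, 0.14 for the beta genes, -0.14 for Cav2, -0.0153 for alpha2delta and 0.21 for Cacnb. The 7 arrays with spike-in signal gave -0.0706 for Cav1, -0.18 for alpha2delta and 0.34 for Cacnb. With each array left out in turn it ran from 0.0871 to 0.34 for the sodium channel alpha genes, from 0.0942 to 0.37 for Cav2 and from -0.18 to 0.22 for alpha2delta. With the chosen probe sets and all arrays, only the sodium channel beta and Cacnb genes had all tested members on the same side.

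**Figure D2:**
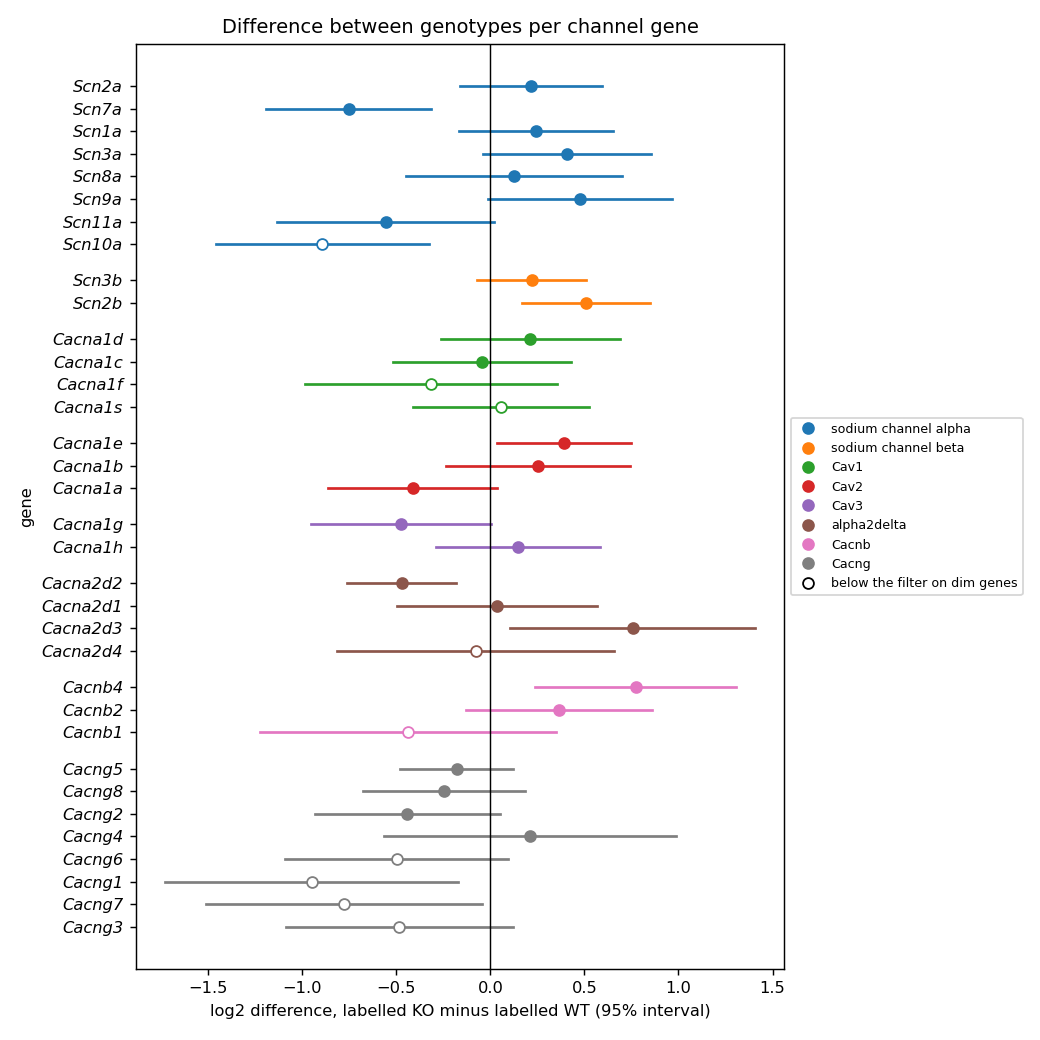
Log2 difference, labelled KO minus labelled WT, with its 95% interval for each of the 34 channel genes, coloured by subfamily, with open circles for the 9 genes below the filter on dim genes. Among the 25 tested genes the intervals of Scn7a and Cacna2d2 lie below 0 and those of Scn2b, Cacna1e, Cacna2d3 and Cacnb4 above 0. Among the 9 dim genes those of Scn10a, Cacng1 and Cacng7 lie below 0. These 3 had an unadjusted limma p below 0.05, as did 11.3% of all genes below the filter in either direction. No channel gene passed the adjusted threshold.

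Among the 7 tested sodium channel alpha genes, Scn7a had the lowest difference and 5 of the other 6 were on the higher side. With the mean of each gene's probe sets Scn7a was at -0.58 and 0 of the other 6 were on the higher side, Scn1a, Scn2a, Scn3a, Scn8a and Scn9a lying between -0.23 and -0.00853. These means include probe sets below the filter, where 73.9% of all probe sets on the array were lower with the KO label. Scn7a encodes Nax, an atypical member that is not opened by voltage and is known as a sodium-level sensor of glia in the brain's salt-sensing organs. In the arrays labelled WT, replicates 1 to 5, the log2 signal of Scn7a was 10.98, 11.10, 10.51, 11.05 and 11.43, and in those labelled KO, in the same order, it was 10.42, 9.89, 9.73, 10.76 and 10.49. Of the arrays labelled KO, 4 of 5 lay below every array labelled WT, and KO replicate 4 fell inside the WT range. Levels were 10.26 ± 0.43 against 11.01 ± 0.33 (SD, n = 5). The difference was -0.75 (SE 0.21, 95% interval -1.19 to -0.32, limma adjusted p = 0.091; exact permutation p = 0.016), or 1.69-fold lower in the arrays labelled KO. A second Scn7a probe set above the filter was at -0.67. The difference was -0.88 to -0.62 with each array left out in turn (limma adjusted p = 0.056 to 0.206), but -0.45 on the 7 arrays with spike-in signal (limma adjusted p = 0.375). The 452 genes of like brightness had a median difference of 0.08. Beside it, the astrocyte gene Gfap was at -0.73 (limma adjusted p = 0.057), while the astrocyte genes Aqp4, Aldh1l1, Slc1a3 and Gja1 were at -0.02, 0.00, 0.16 and 0.46, and the summed astrocyte markers overlapped between the groups (11464 to 16667 labelled KO, 14285 to 18953 labelled WT). Their part in the Scn7a difference was not tested.

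Scn2a, Scn1a, Scn3a and Scn8a encode the main alpha subunits of brain neurons, NaV1.2, NaV1.1, NaV1.3 and NaV1.6. For Scn2a, the arrays labelled WT gave log2 signals of 11.24, 11.15, 11.73, 10.74 and 11.36 and the arrays labelled KO gave 11.13, 11.77, 11.59, 11.22 and 11.57. The groups overlapped widely, with WT replicate 4 lowest and KO replicate 2 highest. The difference was 0.21 (SE 0.18, 95% interval -0.16 to 0.59, limma adjusted p = 0.556; exact permutation p = 0.33). Without WT replicate 4 Scn2a was at 0.0871, and at -0.23 with the mean of its probe sets. Scn1a was at 0.24 (interval -0.17 to 0.65) and Scn3a at 0.41 (interval -0.04 to 0.85), both also overlapping. Scn8a was at 0.13, and its highest value by far was that of KO replicate 3, at a log2 signal of 10.21 against 8.47 to 9.13 on the other 9 arrays. Without that array the Scn8a difference was -0.18.

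Scn9a encodes NaV1.7, known from sensory neurons and also made in the hypothalamus. Log2 signals of Scn9a were 7.20, 7.49, 7.93, 6.79 and 6.93 with the WT label and 7.84, 7.74, 7.25, 7.89 and 8.01 with the KO label. KO replicates 1, 2, 4 and 5 were above 4 of the 5 arrays labelled WT, and KO replicate 5 above all of them, while KO replicate 3 sat in the middle of the WT range. The difference was 0.48 (SE 0.23, 95% interval -0.01 to 0.97, limma adjusted p = 0.303; exact permutation p = 0.095). The chosen probe set can bind related transcripts, as its name ending in _x_at marks, and the brightest other Scn9a probe set was at 0.15 (limma adjusted p = 0.785). Scn11a, known from pain-sensing neurons, was at -0.56 (limma adjusted p = 0.307), where all genes of like brightness had a median of -0.16. The dim Scn10a was at -0.89 (limma adjusted p = 0.155), with intensities of 0.543 to 7.29 in the arrays labelled KO and 3.49 to 44.4 in those labelled WT, and values this low carry little information on the transcript.

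Several of these genes lie side by side. In RefSeq's gene order (GRCm38.p6), Scn3a and Scn2a are direct neighbours on chromosome 2, as are Scn1a, Scn9a and Scn7a, and Scn10a and Scn11a on chromosome 9. In the chromosome 2 group the difference was 0.41 for Scn3a, 0.21 for Scn2a, 0.24 for Scn1a, 0.48 for Scn9a and -0.75 for Scn7a with the chosen probe sets. With the mean of each gene's probe sets all 5 were below 0, at -0.22, -0.23, -0.10, -0.15 and -0.58. These means include probe sets below the filter, where 73.9% of all probe sets on the array were lower. Further probe sets below the filter were at -0.85 for Scn3a and -0.68, -0.58 and -0.14 for Scn9a. They were at -0.14 and -0.86 for Scn2a, -0.35 for Scn1a and -0.33 for Scn7a. Further ones above the filter were at -0.14 for Scn2a, -0.19 for Scn1a, 0.15 for Scn9a and -0.67 for Scn7a. With the group means removed, the 21 pairs of sodium channel alpha genes had a median r of -0.048 over 10 arrays that share amplification and labelling. The extremes were Scn7a with Scn1a (r = -0.751) and Scn2a with Scn1a (r = 0.841).

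Both sodium channel beta genes measured were on the higher side. Scn2b encodes the beta subunit that links to the alpha subunit by a disulphide bond, and Scn3b one that associates without it. Scn2b had log2 signals of 10.42, 10.04, 10.63, 10.38 and 10.04 in the arrays labelled WT and 10.94, 10.78, 11.14, 10.48 and 10.72 in those labelled KO. Of the arrays labelled KO, 4 of 5 lay above every array labelled WT, and KO replicate 4 lay inside the WT range. Levels were 10.81 ± 0.24 against 10.30 ± 0.26 (SD, n = 5). The difference was 0.51 (SE 0.16, 95% interval 0.17 to 0.85, limma adjusted p = 0.124; exact permutation p = 0.016), or 1.42-fold. The 7 arrays with spike-in signal gave 0.26 (limma adjusted p = 0.508), and a second Scn2b probe set above the filter, at a mean log2 signal of 6.44, was at -0.15. The mean of all 3 Scn2b probe sets was at -0.0038. The log2 signals of Scn3b were 10.67, 10.30, 10.55, 10.21 and 10.52 in the group labelled WT and 10.80, 10.66, 10.68, 10.45 and 10.76 in the group labelled KO. The groups overlapped, with 3 arrays labelled KO above all labelled WT. The difference was 0.22 (SE 0.14, 95% interval -0.07 to 0.51, limma adjusted p = 0.427; exact permutation p = 0.079).

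Of the pore-forming calcium channel genes, Cacna1e alone had an unadjusted p below 0.05. It encodes the R-type channel CaV2.3 of neurons. For Cacna1e, the arrays labelled WT gave log2 signals of 9.48, 9.69, 9.82, 9.87 and 9.40 and the arrays labelled KO gave 9.98, 10.07, 10.49, 9.64 and 10.05. Of the arrays labelled KO, 4 lay above all labelled WT, with KO replicate 3 highest and KO replicate 4 in the middle of the WT range. The difference was 0.39 (SE 0.17, 95% interval 0.04 to 0.75, limma adjusted p = 0.242; exact permutation p = 0.04). The value was 0.28 without KO replicate 3 (limma adjusted p = 0.412) and 0.21 on the 7 arrays with spike-in signal. The unadjusted p was above 0.05 without WT replicate 1 or 5 and without KO replicate 2, 3 or 5. The other Cacna1e probe set, below the filter, was at -0.68, and the mean of both was at -0.14 (limma adjusted p = 0.767). Cacna1b, the N-type channel of nerve terminals, was at 0.25 and overlapped widely, and its brightest probe set not ending in _x_at was at 0.13.

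Cacna1a, the P/Q-type channel that drives transmitter release, was the Cav2 gene on the lower side. Log2 signals of Cacna1a were 7.38, 7.35, 7.58, 7.39 and 6.77 with the WT label and 6.98, 7.01, 6.55, 6.60 and 7.27 with the KO label. All 5 arrays labelled KO were below the WT mean, and WT replicate 5 was the low exception in its group. The difference was -0.41 (SE 0.21, 95% interval -0.86 to 0.04, limma adjusted p = 0.333; exact permutation p = 0.079). Of the 3 other Cacna1a probe sets, the one above the filter was at -0.01 and the 2 below it at -0.61 and -0.46.

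The L-type genes of the Cav1 group gave no separation. Cacna1d had log2 signals of 9.45, 8.74, 9.64, 8.75 and 8.70 in the arrays labelled WT and 8.90, 9.45, 9.13, 9.05 and 9.81 in those labelled KO. Cacna1d encodes CaV1.3, which opens at low voltages and supports pacemaking, and its groups overlapped over most of their range. The difference was 0.21 (SE 0.22, 95% interval -0.26 to 0.69, limma adjusted p = 0.661; exact permutation p = 0.44). The log2 signals of Cacna1c were 7.07, 6.73, 6.78, 6.93 and 7.10 in the group labelled WT and 7.37, 6.47, 7.34, 6.53 and 6.69 in the group labelled KO. Cacna1c encodes CaV1.2, the main L-type channel of brain and heart, and KO replicates 1 and 3 were above and the other 3 below all arrays labelled WT. The difference was -0.04 (SE 0.22, 95% interval -0.52 to 0.43, limma adjusted p = 0.941; exact permutation p = 0.85). A second Cacna1c probe set above the filter was at 0.52.

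The T-type (Cav3) genes, whose channels open near the resting potential and support burst firing, had differences of opposite sign. For Cacna1g, the arrays labelled WT gave log2 signals of 7.05, 7.53, 6.67, 7.05 and 6.95 and the arrays labelled KO gave 6.86, 6.90, 6.14, 6.24 and 6.73. All 5 arrays labelled KO were below the WT mean, though 3 were within the WT range. The difference was -0.47 (SE 0.23, 95% interval -0.95 to 0.00, limma adjusted p = 0.296; exact permutation p = 0.063). Log2 signals of Cacna1h were 6.38, 6.61, 6.51, 6.73 and 6.98 with the WT label and 6.88, 6.98, 7.06, 6.42 and 6.60 with the KO label. The groups of Cacna1h overlapped almost wholly. The difference was 0.15 (SE 0.20, 95% interval -0.29 to 0.58, limma adjusted p = 0.753; exact permutation p = 0.39). Against genes of like brightness, with a median of -0.09, Cacna1g was lower by 0.39 and Cacna1h higher by 0.23 on the log2 scale.

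**Figure D3:**
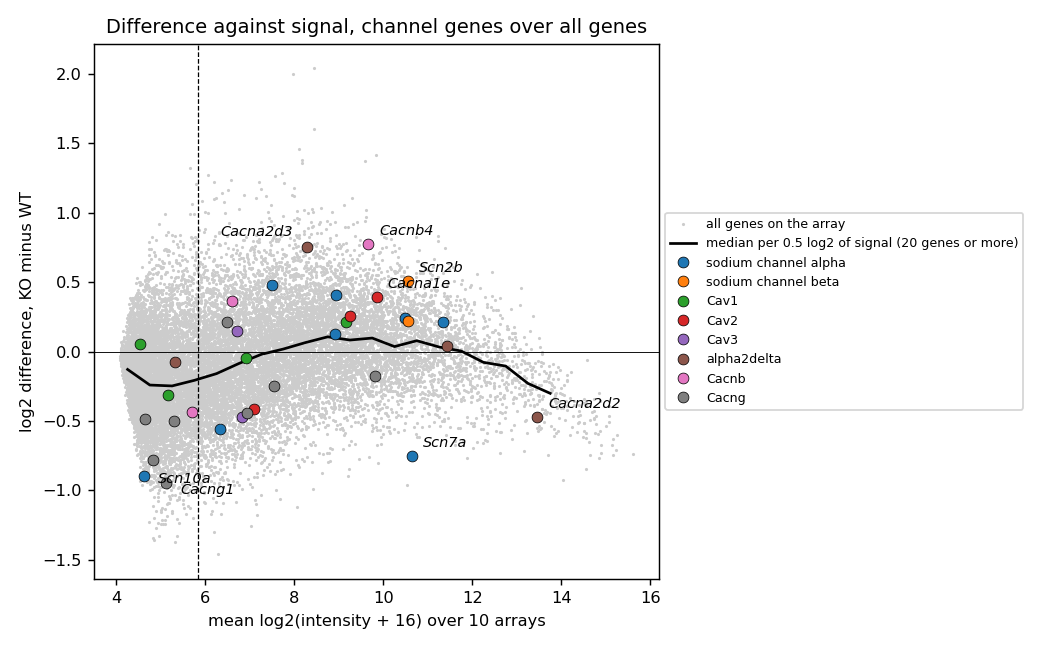
Log2 difference, labelled KO minus labelled WT, against the mean log2 signal over 10 arrays for all 18193 genes (grey), with the channel genes coloured by subfamily, a black line at the median per 0.5 of log2 signal and a dashed line at the filter. The median of all genes is near -0.25 at signals of 5.0 to 5.5 and -0.23 at 13.0 to 13.5, where Cacna2d2 lies. Scn7a is at -0.75, where the median of genes of its own brightness is 0.08.

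The products of the alpha2delta genes bring channels to the membrane, and those of Cacna2d1 and Cacna2d2 bind gabapentin. Cacna2d2 and Cacna2d3 had differences of opposite sign, and Cacna2d1 lay near 0. Cacna2d2 had log2 signals of 13.31, 13.93, 13.83, 13.87 and 13.54 in the arrays labelled WT and 13.08, 13.15, 13.21, 13.53 and 13.16 in those labelled KO. Of the arrays labelled KO, 4 of 5 lay below all labelled WT, and KO replicate 4 lay between WT replicates 1 and 5. The difference was -0.47 (SE 0.14, 95% interval -0.76 to -0.18, limma adjusted p = 0.103; exact permutation p = 0.016), or 1.39-fold lower. The 84 genes as bright as Cacna2d2 had a median difference of -0.23, and with quantile normalization, which gives all arrays the same distribution, Cacna2d2 was at -0.21 (limma adjusted p = 0.441). The 7 arrays with spike-in signal gave -0.44 (limma adjusted p = 0.287). The other Cacna2d2 probe sets, both below the filter, were at -0.55 and -0.05. The mean of all 3 was at -0.36 (limma adjusted p = 0.281).

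Cacna2d3 was on the higher side, and 1 array carried much of it. The log2 signals of Cacna2d3 were 8.14, 7.47, 8.00, 7.83 and 8.06 in the group labelled WT and 8.95, 8.45, 9.93, 7.92 and 8.03 in the group labelled KO. KO replicate 3 was by far the highest, KO replicates 1 and 2 followed above all arrays labelled WT, and KO replicates 4 and 5 lay inside the WT range. The difference was 0.76 (SE 0.31, 95% interval 0.11 to 1.41, limma adjusted p = 0.220; exact permutation p = 0.079). Without KO replicate 3 the difference was 0.44 (limma adjusted p = 0.373), and on the 7 arrays with spike-in signal, which leave that array out, 0.35 (limma adjusted p = 0.572). The unadjusted p was above 0.05 without WT replicate 2, KO replicate 1 or KO replicate 3. KO replicates 3 and 1 also had the highest means of the striatal and septal markers, at 8.19 and 8.07 against 6.63 to 7.99 on the other 8 arrays. The part of these markers in the Cacna2d3 difference was not tested. Cacna2d1 was at 0.04 (interval -0.50 to 0.57), with KO replicate 3 highest at 12.29 and KO replicate 2 lowest at 10.70, so its spread within the arrays labelled KO (SD 0.63) far exceeded the difference.

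Both Cacnb genes above the filter were on the higher side. Beta subunits bind the alpha1 subunit inside the cell and raise its number at the membrane, and Cacnb4 is the one tied to ataxia and seizures in mice. For Cacnb4, the arrays labelled WT gave log2 signals of 9.29, 9.46, 10.09, 8.32 and 9.20 and the arrays labelled KO gave 9.67, 10.24, 10.27, 9.85 and 10.18. Arrays labelled KO ran from 9.67 to 10.27, and WT replicate 3 at 10.09 was inside that range while WT replicate 4 was far below the rest. Levels were 10.04 ± 0.27 against 9.27 ± 0.64 (SD, n = 5). The difference was 0.77 (SE 0.25, 95% interval 0.24 to 1.30, limma adjusted p = 0.135; exact permutation p = 0.032), or 1.71-fold. It was 0.53 without WT replicate 4 (limma adjusted p = 0.231) and 0.98 without WT replicate 3 (limma adjusted p = 0.055), and 0.75 on the 7 arrays with spike-in signal. A second Cacnb4 probe set above the filter was at 0.09 and the last one, below it, at -0.25, and the mean of all 3 was at 0.21 (limma adjusted p = 0.756). Log2 signals of Cacnb2 were 6.33, 6.27, 6.00, 7.16 and 6.35 with the WT label and 6.90, 6.49, 6.59, 7.04 and 6.93 with the KO label. Here WT replicate 4 was instead the highest of all arrays. The difference was 0.37 (SE 0.23, 95% interval -0.13 to 0.86, limma adjusted p = 0.437; exact permutation p = 0.14). Without WT replicate 4 the Cacnb2 difference was 0.55 (unadjusted p = 0.019, limma adjusted p = 0.231).

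The Cacng genes leaned to the lower side, those above the filter as well as the dim ones. Cacng2 had log2 signals of 7.38, 6.95, 7.26, 6.86 and 7.34 in the arrays labelled WT and 6.02, 7.05, 7.18, 6.80 and 6.53 in those labelled KO. Cacng2 encodes stargazin, the founding TARP, and 3 of 5 arrays labelled KO were below all labelled WT. The difference was -0.44 (SE 0.23, 95% interval -0.93 to 0.05, limma adjusted p = 0.345; exact permutation p = 0.087). The log2 signals of Cacng5 were 9.88, 9.84, 10.02, 9.71 and 10.01 in the group labelled WT and 9.78, 9.69, 9.40, 9.76 and 9.92 in the group labelled KO. Cacng5, another TARP, was the brightest of the group and its arrays overlapped. The difference was -0.18 (SE 0.14, 95% interval -0.48 to 0.12, limma adjusted p = 0.537; exact permutation p = 0.1). Cacng8 was at -0.25. Genes as bright as Cacng5, Cacng8, Cacng2 and Cacng4 had median differences of 0.10, 0.02, -0.09 and -0.16. Cacng4 was at 0.21 with WT replicate 2 far below the others, at 4.70 against 6.36 to 7.28, and without that array Cacng4 was at -0.21. Of the 4 Cacng genes below the filter, 4 were lower, from -0.48 for Cacng3 to -0.95 for Cacng1 (limma adjusted p = 0.244 over all genes). Over all members below the filter 8 of 9 were lower, with a median of -0.48, beside 75.1% of all genes below it with a median of -0.21.

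The further probe sets of these genes also leaned lower where they were dim. The 34 genes had 84 probe sets, and 8 genes had only 1. Of 36 further probe sets below the filter 29 were lower in the arrays labelled KO (80.6%, against 73.9% of all probe sets below it). Of 14 further ones above it 7 were lower, against 53.3% of all probe sets above it. Among 12 tested genes with a second probe set above the filter, 7 had none that went the opposite way (Cacna1a, Cacna1b, Cacnb4, Cacng2, Scn7a, Scn8a and Scn9a) and 5 had 1 (Cacna1c, Cacna2d1, Scn1a, Scn2a and Scn2b).

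**Figure D4:**
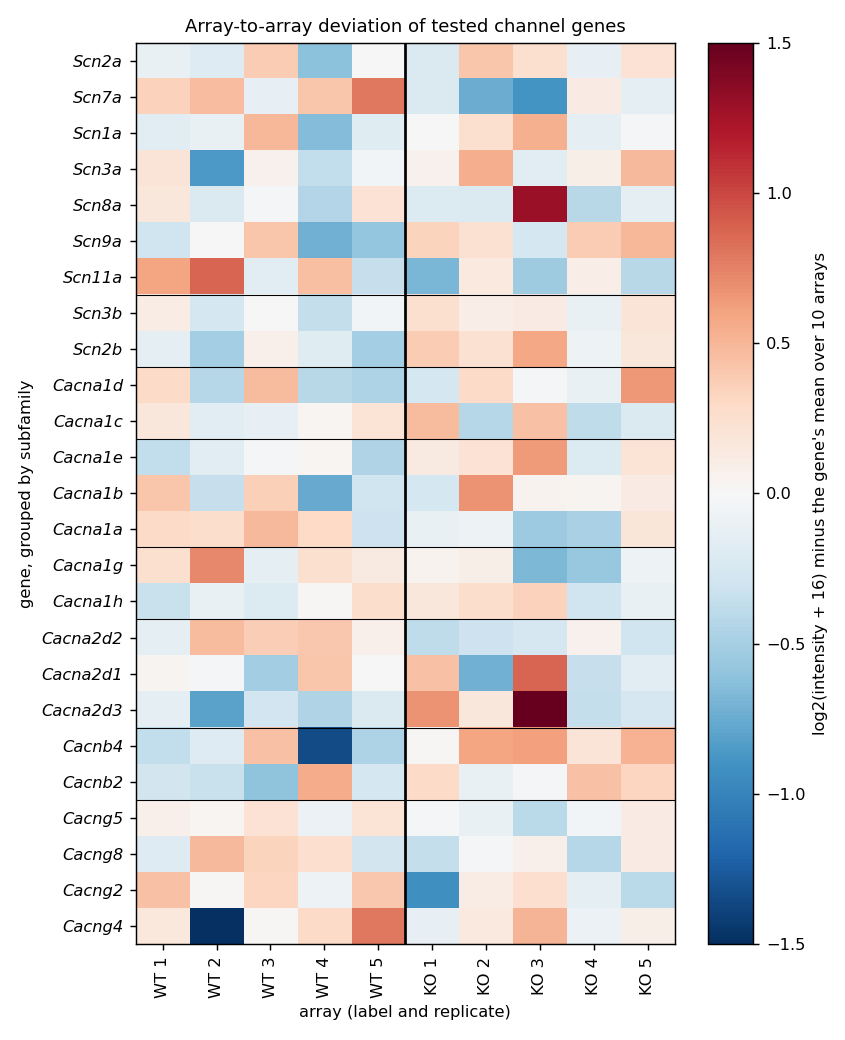
Log2 signal of each of the 25 tested channel genes (rows, grouped by subfamily) on each array (columns, WT left of the black line, KO right), as the deviation from the gene's mean over 10 arrays, with red for higher and blue for lower. KO replicate 3 holds the highest value of all arrays in 8 genes, and WT replicate 4 the lowest in 7.

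The channel genes did not vary as 1 block from array to array. Over 300 pairs of tested members, with group means removed, the correlation over 10 arrays had a median of 0.048. The extremes were -0.914, for Cacnb4 with Cacnb2, and 0.913, for Cacnb4 with Scn2a. KO replicate 3, the array with the highest striatal and septal markers, had the highest value of all arrays in 8 of 25 genes and the lowest in 4. WT replicate 4 had the lowest value in 7 and the highest in 1. KO replicate 3 was also highest for 3 listed choroid plexus markers, at a mean log2 signal of 8.36 against 5.67 to 6.96 on the other 9 arrays. The part of these marker genes in the channel values was not tested. The genes closest in pattern to Scn7a were Myo1c, Cald1 and Elavl1 (r = 0.925, 0.918 and 0.915 over 10 arrays), and those closest to Cacna2d2 were 5830454E08Rik, Stbd1 and Abcc4 (r = 0.949, 0.935 and 0.925). These are the highest correlations with each gene among all tested genes and are given as a description.

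A list of partner and related genes gave 0 limma calls as well. It holds genes whose products bind, anchor or regulate these channels. It also holds AMPA receptor subunits and their partners (such as Gria1, Gria2 and Cnih2) and genes of a separate leak channel (Nalcn, Unc79, Unc80 and Fam155a). Of 50 listed genes, 45 had a probe set and 36 were above the filter, with 23 on the higher and 13 on the lower side and a median log2 difference of 0.09. At an unadjusted p below 0.05, 3 of the 36 were higher and 1 of the 36 was lower. Among all tested genes, 8.29% were higher and 8.96% lower at that threshold. On the higher side Snap25, the SNARE protein that docks vesicles at Cav2 channels, had a difference of 0.60 ± 0.17 (SE; limma adjusted p = 0.095). Fgf13, a binding partner of sodium channels, had 0.36 ± 0.14 (limma adjusted p = 0.200). On the lower side Nos1, the neuronal nitric oxide synthase, had -0.47 ± 0.16 (limma adjusted p = 0.157). Cnih2, an AMPA receptor partner like the TARPs, had -0.48 ± 0.23 (limma adjusted p = 0.295).

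The promoters of the 2 members with the smallest p on each side are shown because they differ widely in base composition. Each runs from 250 bases before to 50 after the start listed first for the gene in RefSeq (GRCm38.p6), read 5′ to 3′ along the gene. They were searched on both strands, overlaps counted, for the GC box (GGGCGG), the cAMP response element (TGACGTCA), the left part of the RE1 element bound by the neuronal repressor REST (TTCAGCACC) and a kappaB site, and capitals mark the matches.
Scn7a: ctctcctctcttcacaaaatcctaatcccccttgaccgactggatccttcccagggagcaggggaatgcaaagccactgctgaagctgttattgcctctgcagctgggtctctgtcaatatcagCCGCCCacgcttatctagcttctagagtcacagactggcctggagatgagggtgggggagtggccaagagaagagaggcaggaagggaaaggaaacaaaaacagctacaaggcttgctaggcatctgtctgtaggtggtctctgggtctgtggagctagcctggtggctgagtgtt
Cacna2d2: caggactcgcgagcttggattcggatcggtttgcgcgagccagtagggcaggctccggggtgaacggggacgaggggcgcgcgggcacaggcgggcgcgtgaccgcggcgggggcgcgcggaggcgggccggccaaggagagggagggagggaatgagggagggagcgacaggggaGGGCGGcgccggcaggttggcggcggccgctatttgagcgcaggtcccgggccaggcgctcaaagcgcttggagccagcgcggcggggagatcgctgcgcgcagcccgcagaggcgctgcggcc
Scn2b: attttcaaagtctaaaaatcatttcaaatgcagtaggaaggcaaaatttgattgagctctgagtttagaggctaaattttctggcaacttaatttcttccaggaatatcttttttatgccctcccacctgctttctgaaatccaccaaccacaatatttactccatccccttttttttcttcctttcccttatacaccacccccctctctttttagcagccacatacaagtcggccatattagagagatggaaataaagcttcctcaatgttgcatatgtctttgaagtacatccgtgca
Cacnb4: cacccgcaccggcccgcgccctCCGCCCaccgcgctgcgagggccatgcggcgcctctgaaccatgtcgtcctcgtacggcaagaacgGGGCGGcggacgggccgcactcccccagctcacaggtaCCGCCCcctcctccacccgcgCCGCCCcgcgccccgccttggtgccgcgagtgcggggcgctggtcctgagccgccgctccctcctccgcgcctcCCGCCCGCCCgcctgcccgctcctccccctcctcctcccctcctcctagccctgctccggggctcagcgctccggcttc

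The Scn7a promoter lies at chr2:66784861-66785160 on the minus strand, Cacna2d2 at chr9:107399630-107399929 on the plus strand, Scn2b at chr9:45117626-45117925 on the plus strand and Cacnb4 at chr2:52676094-52676393 on the minus strand. Cacnb4 and Cacna2d2 are rich in CpG, with 40 and 43 CpG dinucleotides and 78.3% and 75.7% G and C, whereas Scn7a and Scn2b hold 3 and 2 (54.0% and 38.3%). Each side thus held 1 CpG-rich and 1 CpG-poor promoter. RefSeq lists 3 starts for Cacnb4 and only the first is shown. GC boxes matched 6 times in Cacnb4, once in Cacna2d2, once in Scn7a and not in Scn2b. Over the 26 members with a listed promoter, 12 held a GC box, against 35.9% of 27025 genes, and 0 held any of the other 3 motifs, which occur in 1.88%, 0.359% and 0.144% of genes. The ratio of observed to expected CpG was above 0.6 in 11 of the 26 members and in 36.4% of all genes.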

How the data were processed

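The authors deposited 1 linear intensity per probe set and array. The submitters' processing notes name GCOS as the tool. Neither its version nor its settings appear in the sources used here. Each array had been scaled as a whole to 1 trimmed mean (without the lowest and highest 2%), so differences in the shape of the distribution remain. Probe sets were named through the platform annotation, updated by Entrez ID (RefSeq, GRCm38.p6). Of 45101 probe sets, 34945 named 1 gene. The brightest represented each of 18193 genes, with names ending in _x_at used only where there was no other, except for the channel genes, where 2 (Cacna1b, Scn9a) are of that kind.

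Values were tested as log2(intensity + 16), so folds of dim genes are understated. The test was limma (lmFit, eBayes with trend), labelled KO minus labelled WT, on the 10916 genes left without the dimmest 40%, with Benjamini-Hochberg adjustment over all of them. Members below the filter took values from the same fit over all genes. Exact permutation tests were two-sided over all 252 arrangements, with 0.0079 the smallest p possible. The procedure was tested on simulated data. The members, lists and settings were chosen with earlier results of these data known. Values were given for each array of the 2 members with the smallest p in each subfamily, those at unadjusted p below 0.05 and the brightest of each subfamily. Of the tested partner and related genes, those named for their difference are the 2 with the smallest p on each side. Alternatives were quantile normalization, median centring, a pseudocount of 1 or 64, no filter or 60%, the mean of probe sets, array weights, no trend, blocks, spike-in arrays (signal of 100 or more), leaving out each array and, added after the data were seen, no _x_at probe sets. Analyses used R 4.3.3, limma 3.58.1, Python 3.11.15, pandas 2.3.3, numpy 2.4.6 and matplotlib 3.10.9. Each mouse is 1 replicate, and having 5 arrays per group limits precision.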

Additional observations from a re-analysis of the deposited data

Results flagged for a closer look

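Of 50 groups of 5 arrays checked (25 tested genes in each genotype), 2 held an array far from the other 4, where chance flags about 1 in 20 groups. For Scn8a, KO replicate 3 had a log2 signal of 10.21 against 8.50 to 8.78 on the other arrays labelled KO. For Cacna1a, WT replicate 5 was at 6.77 against 7.35 to 7.58 on the other arrays labelled WT.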

How the results depend on the processing

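No channel gene passed the adjusted threshold in limma under any of the settings run, leaving out each array included, and the lowest limma adjusted p was 0.055, for Cacnb4 without WT replicate 3. The 4 genes higher at an unadjusted p below 0.05 became 8 with median centring. The count was 1 with probe sets averaged per gene and 1 on the arrays with spike-in signal. In the same order, 17.9%, 4.74% and 6.5% of all tested genes were higher, against 8.29% in the main fit. With each array left out, 3 to 6 members were higher, beside 6.61% to 9.48% of all tested genes. The 2 genes lower became 1 with quantile normalization, 5 with no filter, 4 with the mean of probe sets and 4 without the intensity trend. The count was 4 with the replicate block and 1 on the arrays with spike-in signal. In the same order, 6.65%, 9.11%, 10.8%, 9.42%, 8.25% and 7.36% of all tested genes were lower, against 8.96% in the main fit. With each array left out, 2 to 4 members were lower, beside 7.33% to 9.68% of all tested genes. Arrays of the same replicate number did not deviate together (correlations of -0.127 to 0.067), and the block left the counts of adjusted and higher calls as they were. The median over the tested channel genes (0.21) was -0.12 with the mean of probe sets, -0.0285 on the arrays with spike-in signal and -0.00437 with no filter. Over all tested genes these settings gave medians of -0.06, -0.02 and -0.09. With each array left out, the median over the channel genes was 0.11 to 0.26. With no filter, the dim members joined the median and the differences of the other members stayed as in the main fit. With the mean of probe sets, the further probe sets joined the value of each gene. Of those of the 34 genes, 29 of 36 below the filter and 7 of 14 above it were lower with the KO label. The cause of the shifts under the other settings was not tested. No gene with an unadjusted p below 0.05 turned its direction, except Cacna1e (-0.14) and Scn2b (-0.0038) with the mean of probe sets.

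Other directions turned as follows. With the mean of probe sets, Cacna1c was at 0.24, Cacna1d at -0.0289, Cacna2d1 at -0.0153, Cacng4 at -0.24, Scn1a at -0.10, Scn2a at -0.23, Scn3a at -0.22, Scn8a at -0.00853 and Scn9a at -0.15. On the arrays with spike-in signal, Cacna2d1 was at -0.18, Cacna2d4 at 0.47, Cacng4 at -0.15 and Scn8a at -0.14. Array weights gave -0.11 for Cacna2d1, 0.0156 for Cacna2d4 and -0.0191 for Scn8a. Cacna2d4 was at 0.0229 with a pseudocount of 1, 0.13 with quantile normalization, 0.0715 with median centring and 0.0814 with the spike-in block, and Cacna1c was at 0.0542 and 0.10 with quantile normalization and median centring. With each array left out, the range crossed 0 for Cacna1c (-0.17 to 0.0572), Cacna1s (-0.0587 to 0.17), Cacna2d1 (-0.18 to 0.22), Cacna2d4 (-0.30 to 0.22), Cacng4 (-0.21 to 0.44) and Scn8a (-0.18 to 0.25). Signal near background limits what the 9 dim genes can show.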
